A study of Rattus norvegicus with 18 samples.

Results

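The miR-193 and miR-365 microRNAs (miRNAs) of rat cervical sensory ganglia were examined, taking every entry of the deposited count table named rno-miR-193a, rno-miR-193b or rno-miR-365, whichever arm of the hairpin it came from. These were 6 of the 753 miRNAs listed: rno-miR-193a-3p, rno-miR-193a-5p, rno-miR-193b-3p, rno-miR-193b-5p, rno-miR-365-3p and rno-miR-365-5p, written below without the prefix for rat. The set was chosen by the high values of miR-193a-3p in the neurotrophin-3 rats, so these values are given as a description and without a test. Of the 6, 4 were counted more than 10 times in at least 6 of the libraries and were among the 373 miRNAs tested, and miR-193a-5p and miR-365-3p did not pass this filter.

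Libraries of small RNA came from the dorsal root ganglia (DRG) at cervical levels C6 to C8 of 18 lister hooded rats, with 6 rats in each of 3 groups and 1 library for each rat. Naive rats had neither surgery nor vector. Rats of the bPYX+GFP group had both corticospinal tracts cut in the medullary pyramids, followed by injection of an AAV1 vector with green fluorescent protein into the forelimb flexor muscles on 1 side, and bPYX+NT3 rats had the same injury and a vector with human prepro-neurotrophin-3. The transgenes were driven by the CMV promoter, which is not specific to a cell type, and ganglia of the injected side were pooled within each injured rat 10 weeks after injury. Since the naive rats lacked both injury and vector, these cannot be told apart in a comparison with naive. In RNA from whole ganglia, fewer cells of a type and less RNA in each cell cannot be told apart either. Libraries held 4.70 ± 0.66 M miRNA counts (SD, n = 18; M stands for mega), between 3.88 and 6.92 M, and a count of 0 allowed up to 3 counts, or 0.434 to 0.773 counts per M (CPM) by library. miR-182 and miR-96-5p, which mark sensory neurons, were at 25160 and 4282 CPM on average and above 0 in every library. The other marker of that list, miR-183-5p, was listed at 0 in all 18, a limit taken up below with the overlap of miRNAs on opposite strands.

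miRNAs are short RNAs cut from a hairpin precursor, and either arm (5p or 3p) may be loaded into an Argonaute protein, where bases 2 to 8, the seed, pair with target messenger RNAs and repress them. miR-193a and miR-193b arise from separate hairpins with nearly the same 3p arm, and each is commonly encoded close to a miR-365 hairpin. miR-193a is known as a suppressor of cell growth in tumours. miR-193b and miR-365 are known for a role in the formation of brown fat cells.

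The mature sequences are shown because they decide which members can share targets and which reads can be told apart. They are taken from RefSeq (assembly GRCr8, plus strand), where all 6 names were matched, and are written 5′ to 3′ with the seed in capitals:
miR-193a-3p: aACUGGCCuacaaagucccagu
miR-193b-3p: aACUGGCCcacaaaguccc
miR-193a-5p: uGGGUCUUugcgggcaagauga
miR-193b-5p: gGGGUUUUgagggcgaga
miR-365-3p: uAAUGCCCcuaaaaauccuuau
miR-365-5p: gAGGGACUuucaggggc

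miR-193a-3p and miR-193b-3p had the same seed, and no other rat miRNA of the RefSeq table had it. They were identical at 18 of the 19 positions they share and differed by U9C, counted from the 5′ end with the base of miR-193a-3p first. Reads of the pair are thus told apart by 1 internal base and by the 3′ end, and how far reads were counted for the wrong member was not tested. Each of the other 4 seeds belonged to 1 member and to no other miRNA of the table.

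The hairpins are shown to place the arms, with the mature 5p and then the 3p sequence in capitals:
Mir193: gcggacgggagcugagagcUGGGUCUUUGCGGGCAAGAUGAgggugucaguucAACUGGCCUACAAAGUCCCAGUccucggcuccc
Mir365b: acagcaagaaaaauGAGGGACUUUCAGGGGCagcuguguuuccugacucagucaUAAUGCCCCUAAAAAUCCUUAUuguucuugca
Mir193b: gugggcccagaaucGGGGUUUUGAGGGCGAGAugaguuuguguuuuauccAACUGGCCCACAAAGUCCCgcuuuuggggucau

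In GRCr8, a later build than that of the counts, Mir193 (the hairpin of miR-193a) and Mir365b neighbour each other between the genes Rab11fip4 and Utp6. Mir193b lies elsewhere, between Mrtfb and Parn, and the RefSeq table placed no miR-365 hairpin beside it. The neighbour of miR-193a-3p in the genome that could be followed across libraries was therefore miR-365-5p, its opposite arm miR-193a-5p being at 0 in 17 of the 18 libraries. miR-193b-3p was its partner by seed.

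The members without usable counts were opposite arms of members that were counted. miR-193a-5p had 1 count in all libraries together, in naive replicate 3, where it amounted to 0.218 CPM. miR-365-3p, in general the arm by which the miR-365 family is known, had 0 counts in all 18 libraries, while miR-365-5p from the same hairpin was counted in each of them. These entries do not show that the RNAs were absent. The hairpin of miR-193a is overlapped on the opposite strand by that of miR-3549, which was also at 0 in every library:
miR-3549: aUCUUGCCcgcaaagaccc

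All 19 bases of miR-3549 were complementary to part of the 22 bases of miR-193a-5p. Of the 94 listed miRNAs whose mature sequence was overlapped in this way, 82 (87.2%) had 0 counts in every library, and in 35 of the 47 such pairs both members did. Of the 567 other matched miRNAs with a sequence found in 1 hairpin, 73 (12.9%) were at 0. The overlapped miRNAs also included miR-183-5p and, of lists used below, miR-338-3p, miR-219a-2-3p, miR-1-3p, miR-126a-5p, miR-214-5p, miR-133a-3p, miR-203a-3p, miR-378a-3p and miR-378a-5p, all listed at 0, which does not show that they were absent. Whether reads were counted by strand is not given in the sources used here, and without strand a miRNA and its antisense partner cannot be told apart. miR-365-3p had no such overlap and was found in 1 hairpin of the table. Reads with too low an alignment quality made up 31.4 ± 1.88% of all entries (SD, n = 18), and their part in the 0 of miR-365-3p was not tested.

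The counted members were at low levels, which sets what could be resolved. miR-193b-3p was counted between 229 and 359 times per library. The 3 others were mostly under 40 counts, with medians of 17 for miR-193a-3p, 21.5 for miR-193b-5p and 17 for miR-365-5p, and for these the counting error alone is large. The coefficient of variation of CPM over all 18 libraries was 23.1% for miR-365-5p, against 24.1% from counting error alone, so its spread over rats was no wider than that of counting. It was 32.8% against 21.1% for miR-193b-5p, 13.9% against 5.82% for miR-193b-3p and 109% against 19.5% for miR-193a-3p. Among the naive rats alone miR-193b-3p varied by 5.28%, against 5.52% from counting.

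**Figure D1:**
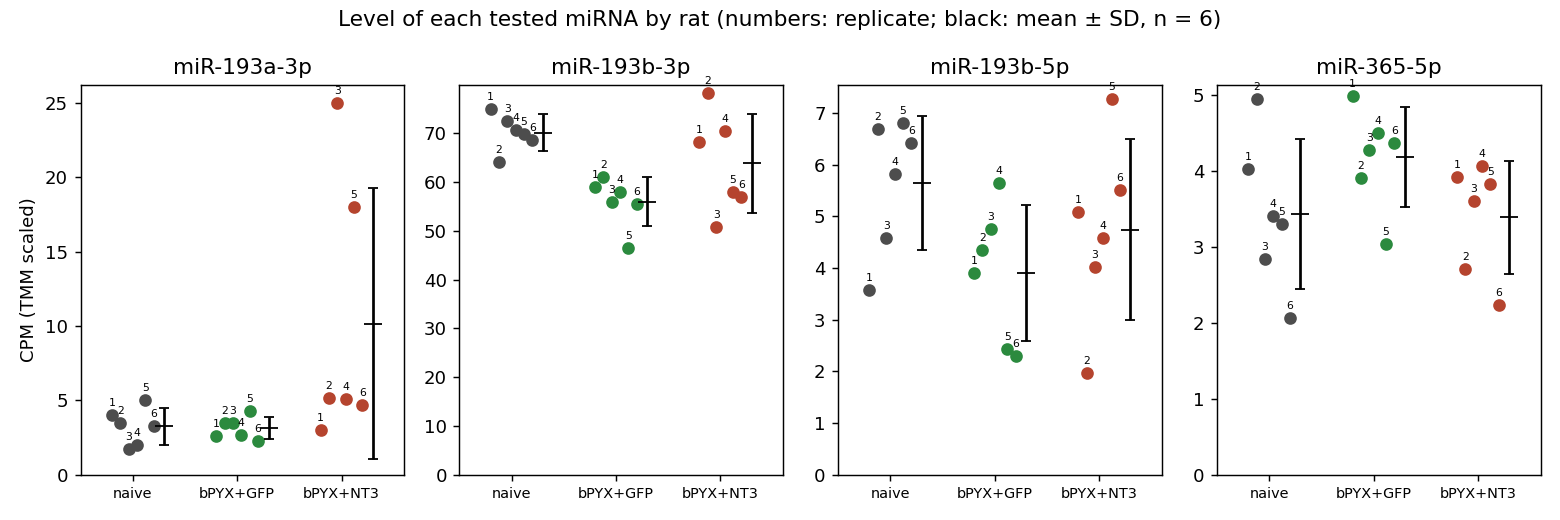
Level of the 4 tested miRNAs in each rat (y axes, CPM after TMM scaling, each from 0; x axes, group), with points numbered by replicate and the mean ± SD of 6 rats in black. miR-193a-3p stood at 25.0 and 18.0 CPM in bPYX+NT3 replicates 3 and 5 and at 1.75 to 5.17 CPM elsewhere, and the bPYX+GFP rats lay below all naive rats for miR-193b-3p.

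The comparison of bPYX+GFP with naive addressed what the injury, with the control vector, changed in the ganglia. After injury with the GFP vector both arms of miR-193b were lower before adjustment (p under 0.05), and miR-193a-3p and miR-365-5p did not pass the test. miR-193b-3p was at 64.1, 70.3 and 75.0 CPM (lowest, median and highest of 6) in naive rats and at 46.5, 57.0 and 60.9 CPM in bPYX+GFP rats. The groups did not overlap, which held for 4.02% of the 373 miRNAs. The mean fell from 70.1 ± 3.70 to 56.0 ± 5.04 CPM (SD, n = 6 each), a log2 fold change of -0.33 ± 0.08 (SE, 95% interval -0.50 to -0.15) with an unadjusted p of 0.00150 by edgeR's quasi-likelihood test and an adjusted p of 0.0510 (Benjamini-Hochberg). A two-sided exact permutation test of the mean log2(CPM + 1) over the 924 splits of the 12 rats gave p = 0.0022, the smallest it can give. Groups of 6 without overlap always give this p, so it repeats the lack of overlap and adds no support. miR-193b-3p ranked 11th by edgeR's p, with 9 miRNAs (2.41%) under an adjusted p of 0.05, and missed that threshold. The count of 9 itself ran from 3 (without bPYX+GFP replicate 1 or naive replicate 4) to 20 (without naive replicate 2) with 1 library left out and was 23 with DESeq2. Over 21 alternatives of scaling, filter, tool and left-out library its edgeR or DESeq2 p stayed between 0.000659 and 0.00675 and its Benjamini-Hochberg adjusted p ran from 0.0197 to 0.111, under 0.05 in 3 of them (DESeq2, 0.0197; a filter on the mean count, 0.0310; without naive replicate 2, 0.0405). Without naive replicate 1, the rat that the study left out, the log2 fold change was -0.31 (edgeR adjusted p = 0.108).

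miR-193b-5p, the other arm of the same hairpin, was at 3.58, 6.12 and 6.81 CPM in naive and at 2.30, 4.13 and 5.64 CPM in bPYX+GFP rats (lowest, median and highest of 6). The groups overlapped, although all 6 bPYX+GFP rats lay below the naive mean. Its log2 fold change was -0.53 ± 0.23 (SE, 95% interval -1.02 to -0.03), with p = 0.0386 and a Benjamini-Hochberg adjusted p of 0.232 by edgeR's quasi-likelihood test, and the exact permutation p was 0.0584. At 10 to 35 counts per library this call was not stable: it kept p under 0.05 in 12 of 21 alternatives. Among the alternatives in which the call was lost were the fit of all 3 groups (log2 fold change -0.53) and the fits without naive replicates 2 (-0.48), 4 (-0.52), 5 (-0.46) or 6 (-0.49) and without bPYX+GFP replicates 1 (-0.53), 5 (-0.44) or 6 (-0.42). The adjusted p ranged from 0.159 to 0.329 over these alternatives.

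The members of the miR-193a side did not pass the test, and their groups overlapped. miR-193a-3p was at 1.75, 3.39 and 5.06 CPM in naive and 2.30, 3.09 and 4.27 CPM in bPYX+GFP rats (lowest, median and highest of 6). Its log2 fold change was -0.05 ± 0.27 (SE, 95% interval -0.62 to 0.52, edgeR adjusted p = 0.963, exact permutation p = 0.968). miR-365-5p, from the neighbouring hairpin, was at 2.07, 3.36 and 4.95 CPM in naive and 3.05, 4.33 and 4.99 CPM in bPYX+GFP rats. It was higher than the naive mean in 5 of 6 rats, with a log2 fold change of 0.29 ± 0.21 (SE, 95% interval -0.16 to 0.74, edgeR adjusted p = 0.469, exact permutation p = 0.143). By the unadjusted threshold used in the study, p under 0.05, 2 of the 4 tested members were called in this comparison, both lower, against 79 of 373 miRNAs (21.2%) in either direction and 10.5% lower. None of the 4 was called after adjustment.

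**Figure D2:**
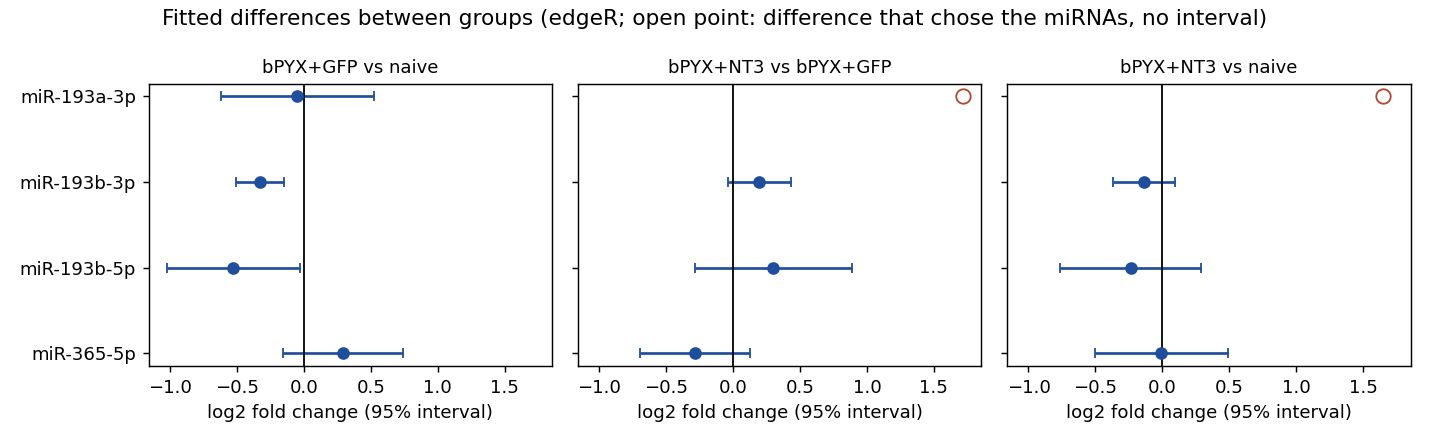
Fitted log2 fold change (x axis) of the 4 tested miRNAs (rows) in the 3 comparisons (panels), with 95% intervals from edgeR; open points are miR-193a-3p in the comparisons with bPYX+NT3, which chose the set and carry no interval. Only the intervals of miR-193b-3p (-0.50 to -0.15) and miR-193b-5p (-1.02 to -0.03) in bPYX+GFP against naive leave out 0.

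The comparisons with bPYX+NT3 addressed the response to neurotrophin-3 in the muscle. For miR-193a-3p the rats of this group fell apart. The bPYX+NT3 rats were at 3.00, 5.13 and 25.0 CPM (lowest, median and highest of 6), with 118 counts (25.0 CPM) in replicate 3 and 94 counts (18.0 CPM) in replicate 5. The other 4 bPYX+NT3 rats had 13 to 23 counts, 3.00 to 5.17 CPM, against 1.75 to 5.06 CPM in naive and 2.30 to 4.27 CPM in bPYX+GFP rats. The mean of 10.2 ± 9.10 CPM (SD, n = 6) thus stood 1.72 (log2) above bPYX+GFP and 1.65 above naive. These differences are given without an SE, since the values chose the set. Without replicates 3 and 5 they were 0.47 and 0.44. Without replicate 3 alone they were 1.20 and 1.16, and without replicate 5 alone 1.48 and 1.40. The labels give no batch or other feature by which these rats differ from the other 4.

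The other members did not show this pattern between groups. miR-193b-3p, the partner by seed, was at 50.9, 63.2 and 78.3 CPM in bPYX+NT3 rats (lowest, median and highest of 6), overlapping both other groups. Against bPYX+GFP its log2 fold change was 0.20 ± 0.11 (SE, 95% interval -0.04 to 0.43, edgeR adjusted p = 0.617, exact permutation p = 0.126), with 5 of 6 rats above the bPYX+GFP mean. The unadjusted edgeR p fell under 0.05 without replicate 3 (0.23 ± 0.10), without replicates 3 and 5 (0.26 ± 0.11) and with scaling by library size only (0.23 ± 0.10), while the adjusted p stayed between 0.484 and 0.816 in all 22 alternatives. Against naive it was -0.14 ± 0.11 (SE, 95% interval -0.37 to 0.09, edgeR adjusted p = 0.600, exact permutation p = 0.165). The bPYX+NT3 mean, 63.8 ± 10.2 CPM (SD, n = 6), thus lay between those of bPYX+GFP and naive and was not separated from either.

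miR-193b-5p in bPYX+NT3 rats was at 1.97, 4.83 and 7.28 CPM (lowest, median and highest of 6), the widest spread of the 3 groups. Its log2 fold change was 0.30 ± 0.28 against bPYX+GFP (SE, 95% interval -0.29 to 0.89, edgeR adjusted p = 0.745, exact permutation p = 0.450) and -0.24 ± 0.25 against naive (-0.76 to 0.29, edgeR adjusted p = 0.70, exact permutation p = 0.338). miR-365-5p was at 2.24, 3.72 and 4.07 CPM, and all 6 rats were below the bPYX+GFP mean of 4.19 ± 0.66 CPM (SD, n = 6). Its log2 fold change was -0.29 ± 0.19 against bPYX+GFP (95% interval -0.70 to 0.12, edgeR adjusted p = 0.668, exact permutation p = 0.102) and -0.01 ± 0.23 against naive (-0.50 to 0.49, edgeR adjusted p = 0.988, exact permutation p = 0.994). None of the 3 members other than miR-193a-3p was called against bPYX+GFP, where 8.58% of the 373 miRNAs had an unadjusted p under 0.05, or against naive, where 13.7% did. None of the 4 tested members separated bPYX+NT3 from either other group without overlap, which held for 0% of the miRNAs against bPYX+GFP and for 1.34% against naive. After adjustment edgeR called 0 miRNAs in both comparisons. The unadjusted counts were 32 and 51 with edgeR (24 to 54 and 32 to 68 with 1 library left out), and DESeq2 gave 0 and 1 miRNAs under an adjusted p of 0.05.

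Whether the other members follow miR-193a-3p can be asked in the single libraries where it was high. Each miRNA was set against its own median over the 18 libraries on the log2(CPM + 1) scale. miR-193a-3p lay 2.54 above its median in bPYX+NT3 replicate 3 and 2.08 above in replicate 5, its highest and next highest libraries, and these were the largest and second largest rises among the 373 miRNAs of the respective library. miR-365-5p, its neighbour in the genome, lay -0.08 from its median in replicate 3 and -0.01 in replicate 5, the 11th and 10th of its 18 libraries. miR-193b-3p was at -0.29 and -0.11, its 17th and 12th libraries. miR-193b-5p was at -0.17 in replicate 3, its 13th library, but at 0.54 in replicate 5, its highest library with 38 counts.

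No other member was raised in both libraries. miR-365-5p, with 17 counts in replicate 3 and 20 in replicate 5, was at 3.60 and 3.83 CPM, and the other 4 bPYX+NT3 rats were at 2.24 to 4.07 CPM. These deviations were descriptive, since the libraries were singled out by miR-193a-3p.

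**Figure D3:**
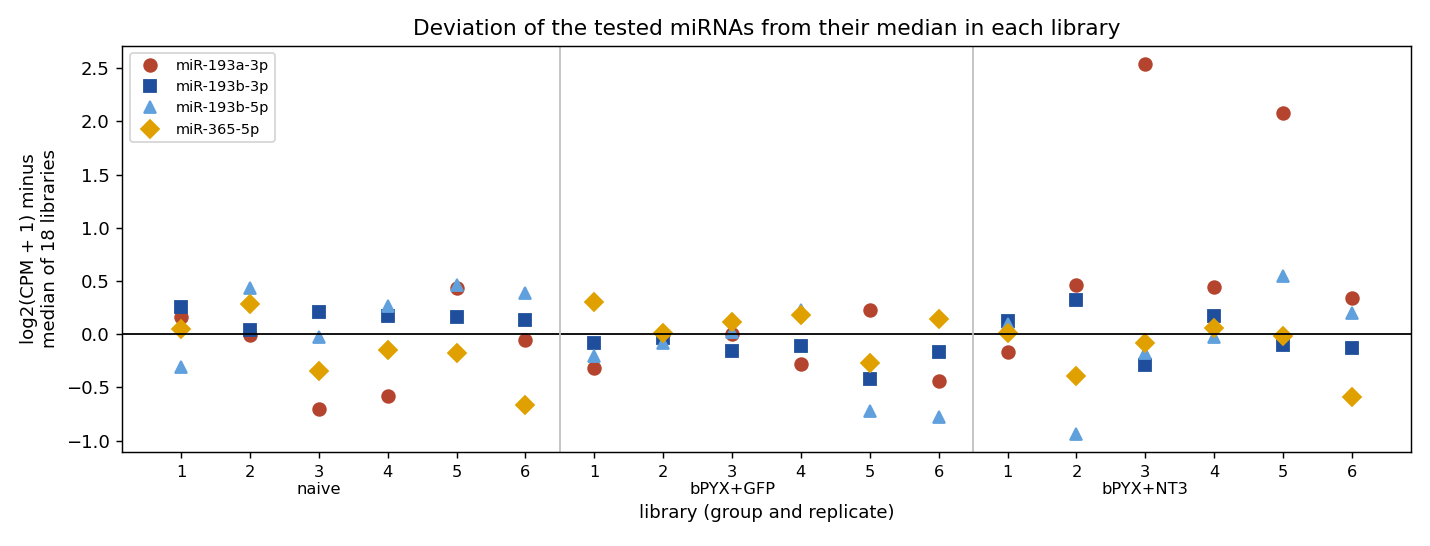
Deviation of each tested miRNA from its own median over 18 libraries (y axis, log2(CPM + 1)) in every library (x axis, by group and replicate). miR-193a-3p is 2.54 and 2.08 above its median in bPYX+NT3 replicates 3 and 5, where miR-193b-3p is at -0.29 and -0.11 and miR-365-5p at -0.08 and -0.01.

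From rat to rat, no relation between the members passed the test. For the 3 pairs with miR-193a-3p, bPYX+NT3 replicates 3 and 5 were left out because they stand apart, leaving 16 libraries. Pearson's r of log2(CPM + 1) was 0.05 with miR-193b-3p (permutation p = 0.847, Spearman's rho 0.11, p = 0.672), -0.11 with miR-193b-5p (permutation p = 0.696, rho -0.14, p = 0.618) and -0.23 with miR-365-5p (permutation p = 0.385, rho -0.29, p = 0.273). Even the arms of 1 hairpin, miR-193b-3p and miR-193b-5p, gave r = 0.14 over 18 libraries (permutation p = 0.582, rho 0.08, p = 0.761). miR-365-5p gave r = -0.18 with miR-193b-3p (permutation p = 0.476, rho -0.23, p = 0.364) and 0.0047 with miR-193b-5p (permutation p = 0.985, rho -0.08, p = 0.754). Over these 6 pairs every adjusted p (Benjamini-Hochberg) was 0.985 for Pearson and 0.761 for Spearman.

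Leaving out the 2 libraries farthest from the median of the first miRNA of a pair gave r of 0.37 for miR-193a-3p with miR-193b-3p, -0.01 with miR-193b-5p and -0.51 with miR-365-5p, and 0.22, -0.22 and -0.08 for the pairs of miR-193b-3p with miR-193b-5p, miR-193b-3p with miR-365-5p and miR-193b-5p with miR-365-5p. Within groups the signs were not steady. The arms of miR-193b had r = -0.82 in naive rats (exact permutation p = 0.0444), 0.64 in bPYX+GFP rats (exact p = 0.151) and -0.56 in bPYX+NT3 rats (exact p = 0.225; n = 6 each). miR-193a-3p and miR-365-5p had r = 0.24 in naive rats (exact permutation p = 0.671) and -0.83 in bPYX+GFP rats (exact p = 0.0306). None of these within-group p-values is adjusted for their number. miR-193a-3p and miR-193b-3p had r = -0.15 and -0.57, miR-193a-3p and miR-193b-5p 0.21 and -0.05, miR-193b-3p and miR-365-5p -0.25 and 0.79, and miR-193b-5p and miR-365-5p -0.11 and 0.47 in naive and bPYX+GFP rats. In bPYX+NT3 rats miR-365-5p had r = 0.01 with miR-193b-3p (exact permutation p = 0.976) and 0.32 with miR-193b-5p (exact p = 0.547). The low members had 8 to 38 counts in these libraries, and whether a weak relation could be detected at this depth was not tested.

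Because miR-193a-3p and miR-193b-3p share a seed, their levels were also summed. Capture in small RNA libraries differs between sequences, so shares are shares of counts and not of molecules. miR-193a-3p made up 33.0% of the pair's counts in bPYX+NT3 replicate 3 and 23.7% in replicate 5. These shares are a description and test nothing, since the values chose the set. In the 16 other libraries it was 2.35% to 8.40%. The sum was 73.4 ± 3.79 CPM in naive, 59.1 ± 4.64 CPM in bPYX+GFP and 74.0 ± 7.22 CPM in bPYX+NT3 rats (SD, n = 6 each). The naive rats, at 67.6 to 79.1 CPM, lay above all bPYX+GFP rats, at 50.8 to 64.4 CPM. Since miR-193b-3p made up most of the sum in both groups, this repeats its own lack of overlap and is no separate result. Such a lack of overlap held for 4.02% of the 373 single miRNAs. The bPYX+NT3 rats ran from 61.6 to 83.5 CPM. Replicates 3 and 5 of bPYX+NT3 were at 75.9 and 76.0 CPM, inside the range of the other 4. Without them the bPYX+NT3 mean was 73.0 ± 9.11 CPM (SD, n = 4). In these 2 rats, picked by their miR-193a-3p, miR-193b-3p was at 50.9 and 58.0 CPM. The other 4 were at 56.9 (replicate 6), 68.3, 70.5 and 78.3 CPM. Replicate 6 was thus below replicate 5, with a miR-193a-3p of only 4.69 CPM. Whether the 2 levels were linked in these rats was not tested.

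**Figure D4:**
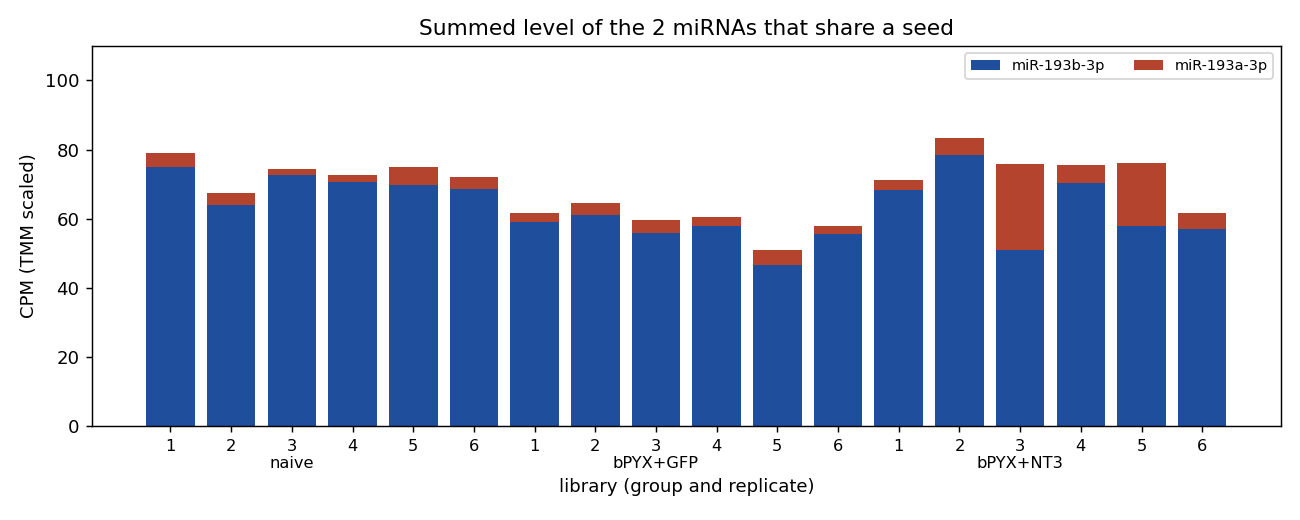
Summed CPM (y axis, from 0, TMM scaled) of miR-193b-3p (blue) and miR-193a-3p (red), which share a seed, in each library (x axis, by group and replicate). The bPYX+GFP libraries sum to 50.8 to 64.4 CPM and the naive libraries to 67.6 to 79.1 CPM, and miR-193a-3p takes 33.0% and 23.7% of the counts in bPYX+NT3 replicates 3 and 5.

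The miRNAs whose pattern over the 18 libraries was most like that of miR-193a-3p came from outside its family. Likeness was measured by Pearson's r of log2(CPM + 1) over the 372 other tested miRNAs, as a description. The first 6 were miR-137-3p (r = 0.883), miR-22-3p (0.871), miR-384-5p (0.846), miR-376c-3p (0.845), miR-181c-5p (0.838) and miR-138-5p (0.816). The members ranked far lower, with miR-193b-5p 136th (r = 0.10), miR-365-5p 187th (-0.06) and miR-193b-3p 267th (-0.33, Spearman's rho -0.12). The signs of these values were not stable: without bPYX+NT3 replicates 3 and 5 r was 0.05 for miR-193b-3p and -0.11 for miR-193b-5p, miR-193b-5p had a rho of -0.02, and with CPM of the library total r was 0.09 for miR-365-5p. Each of the first 6 had its 2 highest libraries in bPYX+NT3 replicates 3 and 5. miR-137-3p, a miRNA of neurons, was at 591 and 488 CPM there and at 213 to 391 CPM in the other 16 libraries. miR-22-3p, an abundant miRNA of many tissues, was at 45660 and 39412 CPM against 21125 to 33281 CPM.

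The rises of these 6 were smaller than that of miR-193a-3p. They ran from 0.43 to 0.97 in replicate 3 and from 0.41 to 0.74 in replicate 5 above their medians (log2). The likeness rested partly on these libraries: without both, r was 0.682 for miR-137-3p, 0.593 for miR-22-3p, 0.673 for miR-384-5p, 0.575 for miR-376c-3p, 0.561 for miR-181c-5p and 0.459 for miR-138-5p. The first 5 of them stayed the first 5 among the 372. All points share the depth and scaling of their library. For miR-193b-3p the most alike were miR-411-5p (r = 0.818) and miR-381-3p (0.778), both of the imprinted miR-379 to miR-410 cluster, and miR-181d-5p (0.746).

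**Figure D5:**
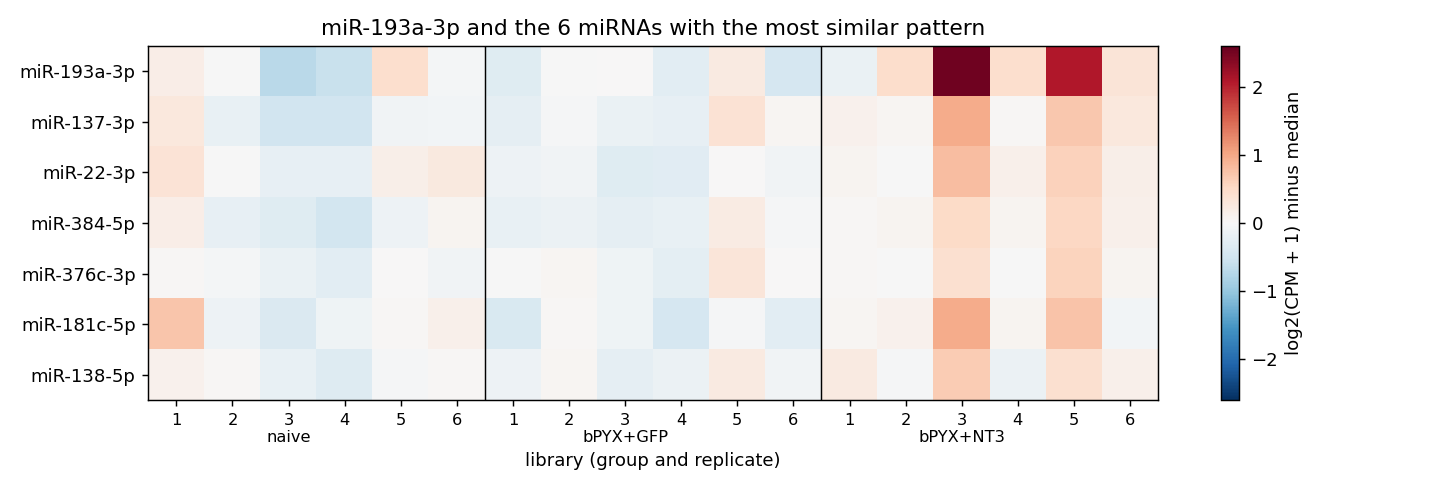
Deviation from the 18-library median (colour, log2(CPM + 1), red above and blue below) of miR-193a-3p and the 6 miRNAs most like it (rows) in each library (columns, by group and replicate). The columns of bPYX+NT3 replicates 3 and 5 are the reddest in every row, at 2.54 and 2.08 for miR-193a-3p and 0.41 to 0.97 for the others.

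Markers of other cells moved in these libraries too. Of the glial list (miR-204-5p, miR-211-5p, miR-338-3p and miR-219a-2-3p), miR-338-3p and miR-219a-2-3p were at 0 in all 18 libraries, each overlapped on the opposite strand, and miR-204-5p and miR-211-5p were each lowest in bPYX+NT3 replicate 3 and next lowest in replicate 5. The summed glial level was 5428 and 6162 CPM in these libraries. It ranged from 7070 to 12154 CPM in naive, from 7504 to 9798 CPM in bPYX+GFP and from 5428 to 10772 CPM in bPYX+NT3 rats. The part of glial content in the miR-193a-3p values was not tested.

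Of the central neuron list, miR-137-3p and miR-138-5p ranked 1st and 2nd in replicates 3 and 5. Both had been picked above for likeness to miR-193a-3p, which was high there, so these ranks are no separate observation. miR-128-3p of the same list ranked 18th and 15th. miR-124-3p, the defining one, was at 0 to 1.61 CPM over all libraries. The endothelial marker miR-126a-3p ranked 18th and 14th, and the sum of the sensory neuron list 16th and 7th. Of that list, miR-96-5p ranked 18th and 16th, and miR-182, which makes up most of the sum, 16th and 5th. The skeletal muscle sum (4th and 8th), blood sum (7th and 13th), epithelial sum (2nd and 7th) and fibroblast sum (10th and 5th) gave no common order. Replicate 3 also stood apart as a whole, with 40 miRNAs over 0.5 (log2) above their median and the largest median absolute deviation of the 18 libraries, 0.240, against 0.107 to 0.193 in the others. Replicate 5, with 20 miRNAs over 0.5 and a median absolute deviation of 0.153, was within the range of the others.

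As background to the role of miR-193b and miR-365 in brown fat, 18 other miRNAs described in brown fat cell formation were listed. The table held 17 of them, of which 4 (miR-133a-3p, miR-203a-3p, miR-378a-3p and miR-378a-5p) were at 0 in every library, each of them overlapped on the opposite strand, and 12 were tested. In bPYX+GFP against naive, 4 were higher and 1 lower at an unadjusted p under 0.05, where 10.7% of all tested miRNAs were higher and 10.5% lower. miR-455-3p was higher, by 0.23 ± 0.08 (log2, SE; edgeR adjusted p = 0.134), miR-182 likewise by 0.20 ± 0.08 (edgeR adjusted p = 0.173), and miR-455-5p, the opposite arm to miR-455-3p, was lower (-0.28 ± 0.11, edgeR adjusted p = 0.190). The other 2 higher miRNAs were miR-27a-3p and miR-328a-3p. miR-182 also belongs to the sensory neuron list. The median log2 fold change of the 12 was 0.015, and that of all 373 was 0.0036.

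With bPYX+NT3 against bPYX+GFP, none of the 12 was higher and 2 were lower, where 5.09% of all were higher and 3.49% lower. These were miR-455-3p (-0.31 ± 0.09, edgeR adjusted p = 0.217) and miR-27a-3p, an inhibitor of fat cell formation (-0.26 ± 0.09, edgeR adjusted p = 0.241). The third by p, miR-34a-5p, did not pass (0.27 ± 0.14, edgeR adjusted p = 0.617). The median of the 12 was 0.025, against -0.00042 for all. With bPYX+NT3 against naive, miR-182 was higher (0.19 ± 0.09, edgeR adjusted p = 0.349) and miR-455-5p lower (-0.41 ± 0.14, edgeR adjusted p = 0.191), while miR-328a-3p did not pass (0.25 ± 0.12, edgeR adjusted p = 0.353). The share of all miRNAs called was 7.24% higher and 6.43% lower, and the medians were 0.086 for the 12 and -0.011 for all. None of the list passed adjustment in any comparison. Comparisons that share a group also share its libraries, so the opposite values of miR-455-3p after injury and with neurotrophin-3 both rest on the bPYX+GFP rats.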

How the data were processed

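The deposited values were raw read counts per mature miRNA. Per the labels and the study's methods, the authors prepared small RNA libraries with a NEBNext kit, with no molecular identifiers stated, converted reads with bcl2fastq 1.8.4, trimmed adapters, aligned reads to Rnor_5.0 with Bowtie2 and counted with HTSeq. The remaining versions, the miRNA annotation and the strand setting are not given in the sources used here. Entries of all kinds, including 5 totals of reads given to no miRNA not used in library sizes or tests, summed to 13.5 ± 1.75 M per library (SD, n = 18), of which 34.9 ± 1.68% were miRNA counts, 31.4 ± 1.88% were of too low alignment quality and 3.26% were ambiguous. PCR copies are not independent molecules, so counting errors and limits cover counting error only.

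Each comparison was fitted on its 12 libraries with edgeR 4.0.16 in R 4.3.3 (TMM, quasi-likelihood F test, more than 10 counts in at least 6 of 18 libraries), with Benjamini-Hochberg adjustment over 373 miRNAs. The SE was the log2 fold change divided by the square root of F. Tests were two-sided. CPM is per M miRNA counts after TMM scaling. Correlations used log2(CPM + 1) and 100000 resamples, or all orders within a group of 6. Exact permutation tests of single members on log2(CPM + 1), over 924 splits, were added after seeing the data. The fit was tested on simulated data, of which no result is given here. No pair of the 45 within groups agreed within sampling noise (chi-square over its degrees of freedom, 39.6 or more). All 18 libraries were kept, although the study left out 1 naive rat (naive replicate 1) as an outlier. Labels number the rats but do not say that numbers pair them.

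Named miRNAs were all members, the 6 most alike to miR-193a-3p, the 3 most alike to miR-193b-3p, and of the brown fat list the 3 of smallest p in each comparison. The other markers and the miR-3549 pair are named beside results they touch. The members, lists and tests were chosen with earlier results of these data known. Alternatives were other scalings, filters and tools (DESeq2 1.42.0 among them), all groups in 1 fit, the replicate number as a block and libraries left out. Leaving out bPYX+NT3 replicates 3 and 5 for the likeness was added after seeing the data.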

Additional observations from a re-analysis of the deposited data

Results flagged for a closer look

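Among the 40 groups of 6 values examined for 1 sample far from the rest, 2 were found, and chance gives about 1 in 20, or 2. miR-193a-5p in naive replicate 3 was at 0.218 CPM, which is 1 read, with the other 5 naive rats at 0. miR-181c-5p in naive replicate 1 was at 182 CPM, with the next highest naive rat at 121 CPM. miR-181c-5p is among the miRNAs most like miR-193a-3p, and miR-193a-3p in the same rat was not high, with 18 counts. For miR-193a-3p in bPYX+NT3, no single rat was marked, since the test looks at 1 extreme value and replicates 3 and 5 were both high.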

How the results depend on the processing

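All p-values here are from edgeR unless DESeq2 is named, and what caused the changes was not tested. The fall of miR-193b-3p in bPYX+GFP against naive kept its direction and a p under 0.05 in all 21 alternatives, at -0.35 to -0.30 (log2) with 1 library left out. The rise of miR-193a-3p in bPYX+NT3 ran from 1.20 to 1.92 against bPYX+GFP and from 1.16 to 1.89 against naive with 1 library left out, and was 0.47 and 0.44 without replicates 3 and 5. For miR-193a-3p in bPYX+GFP against naive, leaving out 1 library gave -0.17 to 0.14, with the sign turned without naive replicate 1 (0.016), naive replicate 5 (0.14) and bPYX+GFP replicate 6 (0.022). miR-193b-3p in bPYX+NT3 against bPYX+GFP ran from 0.11 to 0.24 with 1 library left out, and was 0.23 with library size only and 0.26 without replicates 3 and 5. miR-193b-5p, not called in either comparison with bPYX+NT3, kept its sign but moved with 1 library left out from 0.13 to 0.44 against bPYX+GFP and from -0.41 to -0.07 against naive, in each case between the fit without bPYX+NT3 replicate 5 and that without replicate 2. miR-193b-3p in bPYX+NT3 against naive ran from -0.19 (without bPYX+NT3 replicate 2) to -0.08 (without replicate 3) and was -0.04 without replicates 3 and 5 and -0.08 with library size only. miR-365-5p ran from -0.37 (without bPYX+GFP replicate 5) to -0.18 (without bPYX+NT3 replicate 6) in bPYX+NT3 against bPYX+GFP, where it was -0.41 without replicates 3 and 5, and from 0.18 (without naive replicate 6) to 0.42 (without naive replicate 2) in bPYX+GFP against naive. miR-365-5p in bPYX+NT3 against naive, near 0, turned positive with median-of-ratios scaling (0.0069), scaling by library size (0.055), no filter (0.0012), a filter on the mean (0.0093), DESeq2 (0.0064), without naive replicates 1 (0.044), 2 (0.12) and 5 (0.0034) and without bPYX+NT3 replicates 2 (0.064) and 6 (0.092), over a range of -0.10 to 0.12.

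No clear pairing of rats by number was seen, and pairing was not tested. Same-numbered rats correlated between -0.237 and 0.329, -0.147 and 0.176, and -0.406 and 0.393 in the 3 comparisons. Of 6 rats, 1, 2 and 2 correlated best with their own number. With the replicate number as a block, miR-193b-3p in bPYX+GFP against naive was -0.33 (an unadjusted p under 0.05), miR-193b-5p -0.54 (not under 0.05), and miR-365-5p in bPYX+NT3 against naive 0.0057, and the counts of calls were 76, 39 and 48.

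The number of miRNAs with an adjusted p under 0.05 in bPYX+GFP against naive, 9, was 23 with DESeq2 and 3 to 20 with 1 library left out. In bPYX+NT3 against naive, 0 became 1 with the likelihood ratio test, DESeq2 and all 3 groups in 1 fit, and 0 to 4 with 1 library left out. Unadjusted counts were 54 with no filter, 20 without replicates 3 and 5 and 24 to 54 with 1 library left out in bPYX+NT3 against bPYX+GFP, where the highest was without bPYX+NT3 replicate 4. In bPYX+NT3 against naive they were 25 without replicates 3 and 5, and 32 to 68 with 1 library left out, lowest without replicate 3. Over the other alternatives they reached 75.

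Correlations near 0 turned sign. miR-193a-3p with miR-193b-3p was -0.080 without the bPYX+GFP group and -0.15 without bPYX+NT3, and with miR-193b-5p it was 0.079 without bPYX+NT3. miR-193b-3p with miR-193b-5p was -0.0070 scaled by library total, -0.034 without naive and -0.37 without bPYX+GFP, but 0.57 without bPYX+NT3 (permutation p = 0.0505, adjusted p = 0.303). miR-193b-5p with miR-365-5p was -0.073 scaled by library total, -0.16 without bPYX+NT3 and -0.078 without the 2 farthest libraries. miR-193a-3p with miR-365-5p reached -0.74 without naive (permutation p = 0.0132, adjusted p = 0.0791). By Spearman, 1 of the 3 miRNAs most like miR-193b-3p remained.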
